A study of Homo sapiens with 8 samples.

Results

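Amino acid transporters carry amino acids across the plasma membrane, and their RNA was compared here between normoxic and hypoxic SQ20B cells. The set held 9 genes chosen by symbol, namely SLC7A1, SLC7A5, SLC7A6, SLC7A11, SLC3A2, SLC1A4, SLC1A5, SLC38A1 and SLC38A2. RefSeq identifiers in the deposited table were paired with 8 of these genes and 20 of their transcripts, among 14528 named genes and 24812 entries in all. SLC38A2 was not analysed here. SQ20B is an established human cell line from a head and neck squamous cell carcinoma, grown in medium with glucose, glutamine and serum. Poly(A)-selected RNA was sequenced from 4 replicates labelled normoxia and from 4 replicates kept at 0.5% O2 for 16 h, and both groups were untreated otherwise as far as the labels state. The table gives 1 FPKM value per transcript and condition over the 4 replicates. FPKM relates the fragments sequenced from a transcript to its length and to the size of the library, so that levels are per length. Each sample filled 1 sequencing lane per the methods of the study. The spread between replicates and the number of fragments behind each value cannot, however, be read from the pooled FPKM. No test was run, and no difference below could be set against replicate error.

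Plasma membrane amino acid transporters work as carriers with overlapping substrates. Members of the SLC7 family such as SLC7A5, SLC7A6 and SLC7A11 are light chains that need the glycoprotein encoded by SLC3A2, the heavy chain CD98, to reach the cell surface, and they exchange an amino acid inside the cell for another outside. SLC1A4 and SLC1A5 exchange small neutral amino acids such as alanine, serine and cysteine, and SLC1A5 carries glutamine as well. SLC38A1 takes up glutamine and other neutral amino acids with sodium, and SLC7A1 takes up arginine and lysine. Many of these genes are known targets of ATF4, the transcription factor of the amino acid response, which binds a composite element with the core TGATGNAA. Tumor cells often express SLC7A5, SLC7A11 and SLC1A5 at high levels.

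Changes are given as log2((hypoxia FPKM + 0.1)/(normoxia FPKM + 0.1)), with the FPKM of all listed transcripts of a gene summed. The added 0.1 lowers the change of genes with low FPKM. Genes and transcripts whose FPKM values averaged 0.5 or more over both conditions are called expressed, and those with a change of at least 1.5-fold were counted, as a description and not as a test. SLC7A11 had the largest change of the 8 genes and was 3.71-fold lower in hypoxia. SLC7A5 lay at the limit, 1.501-fold lower, and SLC1A4 was 1.85-fold higher. The other 5 genes changed by less than 1.5-fold. Thus 3 of 8 genes (37.5%) passed the limit, 1 of them higher and 2 lower. Among all 12106 expressed genes, 21.2% passed it, 9.95% higher and 11.2% lower in hypoxia. At a limit of 2-fold, SLC7A11 alone was past it among the 8, against 5.82% of all genes (3.21% higher and 2.62% lower), and under equal FPKM sums SLC1A4 passed it as well, with a change of 1.11. The median change of the 8 genes was -0.23 and that of all genes -0.07, and 6 of the 8 genes were lower in hypoxia with the values as deposited. When the columns were scaled to equal FPKM sums, 4 of the 8 genes were lower and the median was -0.01. In bulk RNA, fewer cells that express a gene and less RNA per cell cannot be told apart.

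**Figure D1:**
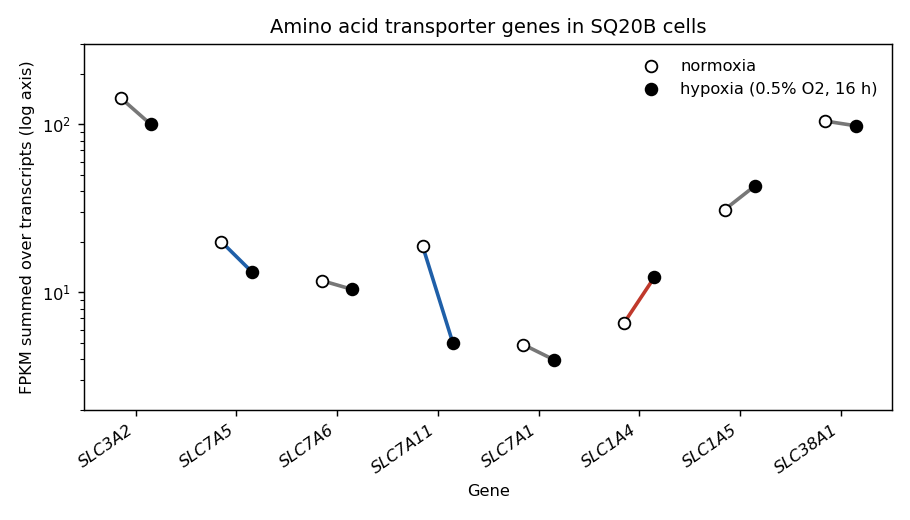
FPKM of 8 amino acid transporter genes in normoxia (open circles) and hypoxia (filled circles), summed over the transcripts of a gene, on a log axis. Each circle is 1 pooled value over 4 replicates with no error available, and lines are red or blue where the gene was at least 1.5-fold higher or lower in hypoxia. SLC7A11 goes from 18.8 to 4.99 FPKM and SLC1A4 from 6.60 to 12.3 FPKM, and the downward lines of SLC7A6 and SLC38A1 turn upward under equal FPKM sums.

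The regulatory windows of these genes are shown first, and whether the letters in them bear on the changes in hypoxia was not tested. RefSeq promoter windows (GRCh38.p14), which run from 250 bases before to 50 bases after a start site, were on hand for 7 of the 8 genes, 13 windows in all, and none for SLC7A11. Every window matched GRCh37 exactly at 1 place. Several start sites were listed for SLC1A4, SLC1A5, SLC3A2 and SLC38A1, and the windows were not paired with single transcripts of the table. TGATGNAA, searched on both strands, was found in 5 of the 13 windows (38.5%), 1 in each of 5 genes, and in 3.62% of all 35116 windows. A match is a description of the letters and not of a bound site. The 5 windows are printed 5′ to 3′ on the strand of the gene with the match in capitals, and where the match lies on the other strand its complement is read. They lie at chr2:64989149-64989448 (plus strand) for SLC1A4, chr19:46784765-46785064 (minus) for SLC1A5, chr11:62881449-62881748 (plus) for SLC3A2, chr13:29595639-29595938 (minus) for SLC7A1 and chr12:46266467-46266766 (minus) for SLC38A1.
SLC1A4: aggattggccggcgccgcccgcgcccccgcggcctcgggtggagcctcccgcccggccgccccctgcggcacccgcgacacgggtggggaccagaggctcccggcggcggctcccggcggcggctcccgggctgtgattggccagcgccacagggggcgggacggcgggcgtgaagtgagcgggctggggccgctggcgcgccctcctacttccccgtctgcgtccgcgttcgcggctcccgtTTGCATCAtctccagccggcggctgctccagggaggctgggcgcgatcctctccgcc
SLC1A5: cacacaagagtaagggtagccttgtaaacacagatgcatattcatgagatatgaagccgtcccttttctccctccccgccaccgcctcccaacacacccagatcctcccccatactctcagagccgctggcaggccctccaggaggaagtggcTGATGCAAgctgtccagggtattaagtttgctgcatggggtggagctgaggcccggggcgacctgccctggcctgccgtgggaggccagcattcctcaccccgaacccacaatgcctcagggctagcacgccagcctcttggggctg
SLC3A2: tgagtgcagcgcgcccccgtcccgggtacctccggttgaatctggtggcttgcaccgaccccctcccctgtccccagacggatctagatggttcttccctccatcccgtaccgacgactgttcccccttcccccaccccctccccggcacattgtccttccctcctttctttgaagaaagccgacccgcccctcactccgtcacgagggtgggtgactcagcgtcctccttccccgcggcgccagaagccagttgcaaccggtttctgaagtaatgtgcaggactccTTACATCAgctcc
SLC7A1: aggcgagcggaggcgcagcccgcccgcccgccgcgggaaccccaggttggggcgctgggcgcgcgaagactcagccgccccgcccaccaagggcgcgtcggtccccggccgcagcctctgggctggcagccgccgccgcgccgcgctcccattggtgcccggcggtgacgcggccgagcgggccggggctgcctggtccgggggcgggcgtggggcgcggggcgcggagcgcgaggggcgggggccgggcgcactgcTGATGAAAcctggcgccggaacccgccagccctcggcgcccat
SLC38A1: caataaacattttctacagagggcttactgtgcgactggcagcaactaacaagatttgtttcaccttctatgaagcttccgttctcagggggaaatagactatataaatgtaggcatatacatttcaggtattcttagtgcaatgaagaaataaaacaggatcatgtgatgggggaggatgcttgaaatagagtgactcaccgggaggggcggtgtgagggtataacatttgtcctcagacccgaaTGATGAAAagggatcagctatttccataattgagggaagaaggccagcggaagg

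Counted from the start site as base 1, with base -1 before it, the match began at base -7 in SLC1A4, -97 in SLC1A5, 38 in SLC3A2, 8 in SLC7A1 and -4 in SLC38A1. Of the genes with these windows, SLC1A4 and SLC1A5 were higher in hypoxia, SLC3A2 and SLC7A1 were lower, and SLC38A1 had a change of -0.09 that became 0.13 under equal FPKM sums. The start sites of these windows lay inside the listed locus by 25687 bases in SLC3A2, 3771 in SLC1A5, 2909 in SLC38A1 and 954 in SLC1A4. That of SLC7A1 lay at the edge of its locus. No match to TGATGNAA lay in the windows of SLC7A5 and SLC7A6.

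The core bound by hypoxia-inducible factors is ACGTG or GCGTG. Either form, on either strand, was found in 11 of the 13 windows (84.6%) and in 48.4% of all windows, so that these letters are common. All 7 genes had a window with a match. The upstream window of SLC1A4 at chr2:64988229-64988528 (plus strand) and the window of SLC7A5 at chr16:87869458-87869757 (minus strand), from a gene higher and a gene lower in hypoxia, are printed with the matches in capitals. In SLC7A5, a pair of matches on opposite strands overlap in CACGTG. The same overlap lies in a window of SLC1A5, a gene higher in hypoxia, which is not printed here.
SLC1A4: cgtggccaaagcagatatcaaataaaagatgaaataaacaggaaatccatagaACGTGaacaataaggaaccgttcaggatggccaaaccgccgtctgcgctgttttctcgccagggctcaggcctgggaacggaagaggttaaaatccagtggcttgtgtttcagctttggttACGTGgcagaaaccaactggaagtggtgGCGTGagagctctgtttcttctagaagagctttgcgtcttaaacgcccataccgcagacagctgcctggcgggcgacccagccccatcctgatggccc
SLC7A5: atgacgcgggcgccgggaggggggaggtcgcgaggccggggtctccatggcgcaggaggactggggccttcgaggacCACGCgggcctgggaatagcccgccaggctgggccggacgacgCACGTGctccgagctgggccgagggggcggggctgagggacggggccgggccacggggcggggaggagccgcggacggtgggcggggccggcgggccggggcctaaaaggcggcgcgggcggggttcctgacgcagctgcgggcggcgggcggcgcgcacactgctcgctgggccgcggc

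SLC3A2 encodes the heavy chain and was the most abundant of the 8 genes in both conditions. Its locus spans positions 62623484 to 62656355 of chromosome 11 in hg19, on the plus strand. The summed level was 143 FPKM in normoxia and 99.7 FPKM in hypoxia, which was 1.44-fold lower, a change of -0.52. Its mean FPKM lay at percentile 94.5 of all genes and its change at percentile 14.1. Of 5 listed transcripts, 4 were expressed and these 4 were lower with the values as deposited. NM_001013251 made up 58.9% of the gene in normoxia and 56.9% in hypoxia, and went from 84.4 to 56.7 FPKM, which was 1.49-fold lower. NM_002394 went from 19.5 to 12.9 FPKM and NM_001012662 from 17.9 to 11.3 FPKM, both past the 1.5-fold limit. The noncoding NR_037193 differed least, with 21.4 and 18.7 FPKM and a change of -0.20, which became 0.03 when the columns were scaled to equal FPKM sums. Its share of the gene therefore went from 14.9% to 18.8%. NM_001012664 was listed at 0.102 and 0.0425 FPKM and did not count as expressed. With the coding transcripts alone, SLC3A2 went from 122 to 81.0 FPKM and its change of -0.59 passed the limit. Splitting fragments among transcripts that share most of their exons is an estimate, and the error of that estimate was not analysed here.

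SLC7A5, the light chain LAT1, exchanges large neutral amino acids such as leucine. It lies on chromosome 16 of hg19 (87863629 to 87903100, minus strand), with NM_003486 as the single listed transcript. It had 20.0 FPKM in normoxia and 13.3 FPKM in hypoxia, a change of -0.59 at percentile 11.2 of all genes. The change did not reach 1.5-fold with 1 in place of 0.1 added (-0.56), with the median change of all genes set to 0 (-0.52), under quantile normalization (-0.48) or under equal FPKM sums (-0.36).

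SLC7A6, the light chain y+LAT2, exchanges arginine for glutamine or other neutral amino acids. It lies on chromosome 16 as well, on the plus strand, in a locus of the table that spans positions 68298419 to 68344868 and also holds SLC7A6OS. Summed over 2 transcripts, it had 11.7 FPKM in normoxia and 10.4 FPKM in hypoxia, and its change of -0.17 turned to 0.05 under equal FPKM sums. The transcripts differed in size of change. NM_003983 was nearly level at 8.89 and 8.52 FPKM, and NM_001076785 went from 2.86 to 1.90 FPKM, which was 1.48-fold lower. The share of NM_003983 was 75.7% in normoxia and 81.8% in hypoxia. SLC7A6OS, the neighbor in the same locus, had 12.5 FPKM in normoxia and 9.30 FPKM in hypoxia. The libraries were stranded, and the Cufflinks suite was run with standard parameters, but whether the FPKM values separate the strands is not stated there.

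SLC7A11, the light chain xCT, takes up cystine in exchange for glutamate and so supplies cysteine for glutathione. NM_014331 is its single listed transcript, on the minus strand of chromosome 4. The listed locus runs from 138948577 to 139163503 in hg19, and the GRCh37 annotation of the gene covers 139085251 to 139163503 of it. SLC7A11 had 18.8 FPKM in normoxia and 4.99 FPKM in hypoxia, a change of -1.89. Only 12 of the 12106 genes, SLC7A11 included, had a change as low or lower. The change stayed between -1.91 and -1.67 under all 9 alternatives of pseudocount, filter, scaling and transcript choice. SLC7A11-AS1, a noncoding RNA of the same locus, was listed at 0.665 FPKM in normoxia and 0.262 FPKM in hypoxia, a change of -1.08 at a level too low to count as expressed.

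The 3 light chains of the set together had 50.5 FPKM in normoxia and 28.7 FPKM in hypoxia. SLC7A7, a light chain outside the set, had 3.31 FPKM in normoxia and 3.62 FPKM in hypoxia. It is not part of this sum or of the ratios and shares below. SLC3A2, with its noncoding transcript included, had 2.84 times the sum of the 3 in normoxia and 3.47 times in hypoxia. The coding transcripts of SLC3A2 alone had 122 FPKM in normoxia and 81.0 FPKM in hypoxia. The composition of the RNA of these 3 light chains also differed. SLC7A11 made up 37.1% of it in normoxia and 17.4% in hypoxia, SLC7A5 39.6% and 46.3%, and SLC7A6 23.2% and 36.3%. The level of SLC7A5 was 1.07 times that of SLC7A11 in normoxia and 2.67 times in hypoxia. These ratios lie within a condition, so a common scaling of a column leaves them as they are.

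**Figure D2:**
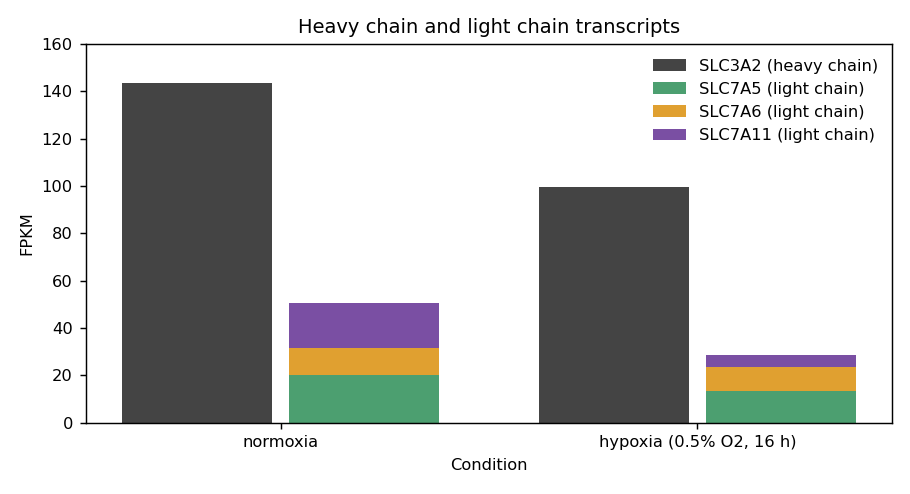
FPKM of the heavy chain gene SLC3A2 (dark bars) and of the light chain genes SLC7A5, SLC7A6 and SLC7A11 (stacked bars) in normoxia and hypoxia, on a linear axis from 0. Each bar segment is 1 pooled value over 4 replicates with no error available. The light chain stack goes from 50.5 to 28.7 FPKM, and its SLC7A11 segment from 18.8 to 4.99 FPKM.

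SLC7A1, the arginine and lysine carrier CAT1, was the least abundant of the 8 genes in both conditions. It lies on chromosome 13 (30083551 to 30169825, minus strand) and has 1 listed transcript, NM_003045. It had 4.89 FPKM in normoxia and 3.99 FPKM in hypoxia, a change of -0.29 at percentile 30.7 of all genes. Under equal FPKM sums the change was -0.07.

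The neutral amino acid exchangers SLC1A4 and SLC1A5 were the 2 genes of the set that were higher in hypoxia with the values as deposited, and they were higher under every scaling that was tried. SLC1A4, also called ASCT1, lies on chromosome 2 (65215579 to 65251000, plus strand). It had 6.60 FPKM in normoxia and 12.3 FPKM in hypoxia, a change of 0.89 at percentile 95.7 of all genes. NM_003038 carried 98.4% of this FPKM in normoxia and 95.9% in hypoxia, and went from 6.49 to 11.8 FPKM. NM_001193493 was listed at 0.104 and 0.503 FPKM and did not count as expressed.

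SLC1A5, also called ASCT2, is a major glutamine carrier of tumor cells. It lies on chromosome 19 (47278140 to 47291842, minus strand). It had 31.1 FPKM in normoxia and 43.0 FPKM in hypoxia, which was 1.38-fold higher, a change of 0.47 at percentile 86.0 of all genes. Under equal FPKM sums its change was 0.69 and passed the 1.5-fold limit. Both expressed transcripts were higher, NM_001145144 with 21.4 and 29.1 FPKM and NM_005628 with 9.57 and 13.7 FPKM. NM_001145145 was listed at 0.182 and 0.321 FPKM and did not count as expressed. The shares of the expressed transcripts hardly differed, NM_001145144 making up 68.7% of the gene in normoxia and 67.5% in hypoxia. SLC1A5 had 4.72 times the FPKM of SLC1A4 in normoxia and 3.50 times in hypoxia.

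SLC38A1, the sodium-coupled carrier SNAT1, was the gene with the smallest change with the values as deposited, whereas SLC7A6 changed less under quantile normalization and SLC7A6 and SLC7A1 changed less under equal FPKM sums. It lies on chromosome 12 (46576840 to 46663208, minus strand), and had 104 FPKM in normoxia and 97.9 FPKM in hypoxia. Its change of -0.09 turned to 0.12 under quantile normalization and to 0.13 under equal FPKM sums. NM_001278389 made up 80.9% of the gene in normoxia and 83.5% in hypoxia, with 84.4 and 81.8 FPKM. The other 4 transcripts lay between 1.90 and 7.22 FPKM in normoxia, with changes from -0.42 for NM_030674 to 0.02 for NM_001278390.

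Of the 20 transcripts of the set, 17 were expressed, and 5 of these (29.4%) passed the 1.5-fold limit, 1 higher and 4 lower in hypoxia. Among all 18190 expressed transcripts, 24.9% passed it, 10.5% higher and 14.3% lower. With the columns scaled to equal FPKM sums, 3 transcripts of the set passed the 1.5-fold limit upward, namely SLC1A4 NM_003038 and SLC1A5 NM_001145144 and NM_005628, and 1 downward, that of SLC7A11. At 2-fold, with the values as deposited, 1 transcript of the set was left, that of SLC7A11, against 7.39% of all (3.7% higher and 3.69% lower). The 4 lower ones were those of SLC7A11 and SLC7A5 and a pair from SLC3A2. Of the 4 genes with more than 1 expressed transcript, SLC38A1 was the only one with changes of both signs under the values as deposited, and scaling to equal FPKM sums gave changes of both signs in SLC7A6 and SLC3A2 too.

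**Figure D3:**
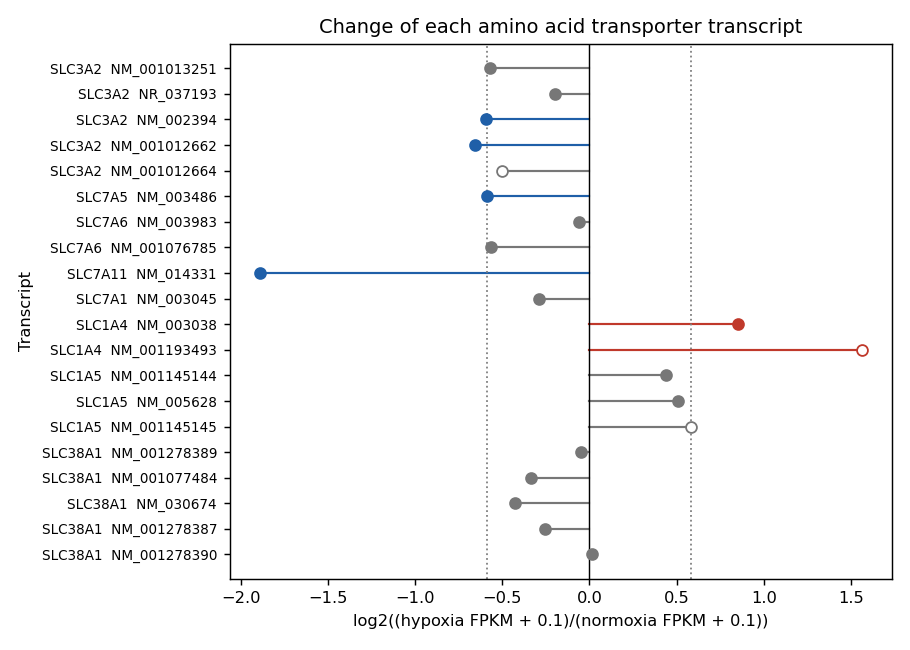
Change of each of the 20 transcripts as log2((hypoxia FPKM + 0.1)/(normoxia FPKM + 0.1)), ordered by gene and by mean FPKM within a gene. Open circles mark the 3 transcripts that did not count as expressed, dotted lines mark 1.5-fold, and red and blue mark changes past it. SLC7A11 NM_014331 stands farthest to the left at -1.89, and the open circle of SLC1A4 farthest to the right rests on 0.104 and 0.503 FPKM.

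The order of the levels differed little between conditions. From high to low it was SLC3A2, SLC38A1, SLC1A5, SLC7A5, SLC7A11, SLC7A6, SLC1A4 and SLC7A1 in normoxia. In hypoxia SLC1A4 stood in the place of SLC7A11, which came after SLC7A6, and the other places were the same. Whether neighbors in this order differ beyond their spread could not be determined. With the values as deposited, the 8 genes summed to 341 FPKM in normoxia and 286 FPKM in hypoxia. All entries together summed to 536005 and 458431 FPKM, so that the sum of the set was lower in nearly the same proportion as the whole column.

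Other amino acid transporters of the plasma membrane were described from a list of 41 genes, 17 of which were expressed. Of these 17 genes, 14 were higher and 3 lower in hypoxia, and the median change was 0.12 against -0.07 for all genes. The 1.5-fold limit was passed by 4 upward and none downward, or 23.5% of the 17. Of all genes, 21.2% passed it, 9.95% upward. Under equal FPKM sums 15 were higher and 2 lower, and under the other scalings 14 and 3. Several of the higher genes were nearly level with the values as deposited, such as SLC6A9 (0.02), SLC38A7 (0.03) and SLC36A4 (0.04). SLC38A7 and SLC36A4 are also known from lysosomes, so that the counts of this list do not describe the plasma membrane alone. The glutamate and aspartate carrier SLC1A6 had 3.54 FPKM in normoxia and 23.1 FPKM in hypoxia. SLC1A1, a carrier of glutamate and cysteine, had 0.378 and 1.41 FPKM and counted as expressed through its hypoxia value, which favors an upward change. SLC43A3 had 4.88 and 8.71 FPKM and was 1 of the 4 genes past the limit, although it is known as a carrier of purine nucleobases. Without it 3 of 16 genes passed, and these include SLC6A6, known as a taurine carrier. Below 0 were the neutral amino acid carrier SLC6A15, with a change of -0.50, the cationic amino acid carrier SLC7A2 with -0.42, and SLC1A3, a glutamate and aspartate carrier, with -0.19. SLC1A3 was more abundant than any gene of the set, with 210 FPKM in normoxia and 185 FPKM in hypoxia, and its change turned positive under equal FPKM sums.

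A separate list held amino acid carriers of mitochondria and lysosomes, and 13 of its 16 genes were expressed. With the values as deposited 10 were lower and 3 higher, and 4 passed the limit downward and 1 upward. Those past it were 38.5% of the 13, against 21.2% of all genes. Under equal FPKM sums, however, 6 were lower and 7 higher, with 2 past the limit in each direction. SLC25A15, the mitochondrial ornithine carrier, had 12.5 FPKM in normoxia and 5.98 FPKM in hypoxia. The sideroflexin SFXN2 had 10.4 and 5.88 FPKM, and the aspartate and glutamate carrier SLC25A12 10.1 and 5.97 FPKM. The sideroflexin SFXN3, a mitochondrial serine carrier, was higher, with 5.92 and 14.6 FPKM, and SLC25A29, a mitochondrial carrier of basic amino acids, and SLC15A4, a lysosomal histidine and peptide carrier, had changes of 0.45 and 0.24.

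Cystine taken up by SLC7A11 feeds glutathione synthesis, and 13 genes on a list of glutathione and thiol redox metabolism were expressed. The list also holds the quinone reductase NQO1 and the heme oxygenase HMOX1, so that its median does not describe glutathione synthesis alone. Of the 13 genes, 11 were lower and 2 higher in hypoxia. The median change was -0.62, which was that of NQO1, against -0.07 for all genes. The 1.5-fold limit was passed by 7 downward and 1 upward, or 61.5% of the 13, against 21.2% of all genes. Under equal FPKM sums 10 were lower and 3 higher, with 4 past the limit downward, and the median was -0.40. GCLM, the modifier subunit of the enzyme that makes the glutathione precursor, had 132 FPKM in normoxia and 56.1 FPKM in hypoxia, which was 2.36-fold lower. The synthesis genes GCLC and GSS had changes of -0.33 and -0.12, within the limit. CHAC2, which degrades glutathione, had 49.8 and 21.5 FPKM, and CHAC1, with the same activity, 0.929 and 0.353 FPKM. CHAC1 counted as expressed through its normoxia value, which favors a downward change. The heme oxygenase HMOX1 was higher, with 1.11 and 1.72 FPKM, and GPX1 had a change of 0.02.

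Since ATF4 is known to act on many amino acid transporter genes, its RNA and that of genes of the amino acid response are given beside them. ATF4 had 330 FPKM in normoxia and 191 FPKM in hypoxia, which was 1.73-fold lower. The level and activity of the ATF4 protein cannot be read from its RNA. Of 23 expressed genes on this list, 17 were lower and 6 higher, and the median change was -0.32 against -0.07 for all genes. The limit was passed by 4 in each direction, or 34.8% of the list, against 21.2% of all genes. Under equal FPKM sums 12 were lower and 11 higher, 5 passed the limit upward and 1 downward, and the median was -0.09. CHAC1, which also stands on the list of glutathione genes, ATF4 and DDIT3 had the lowest changes, and DDIT3, the factor CHOP, had 48.6 and 28.6 FPKM. The lipoprotein receptor VLDLR had 0.356 and 3.13 FPKM, DDIT4, an inhibitor of mTORC1 signaling, 53.7 and 195 FPKM, and STC2 18.9 and 41.2 FPKM. VLDLR counted as expressed through its hypoxia value, which favors an upward change.

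**Figure D4:**
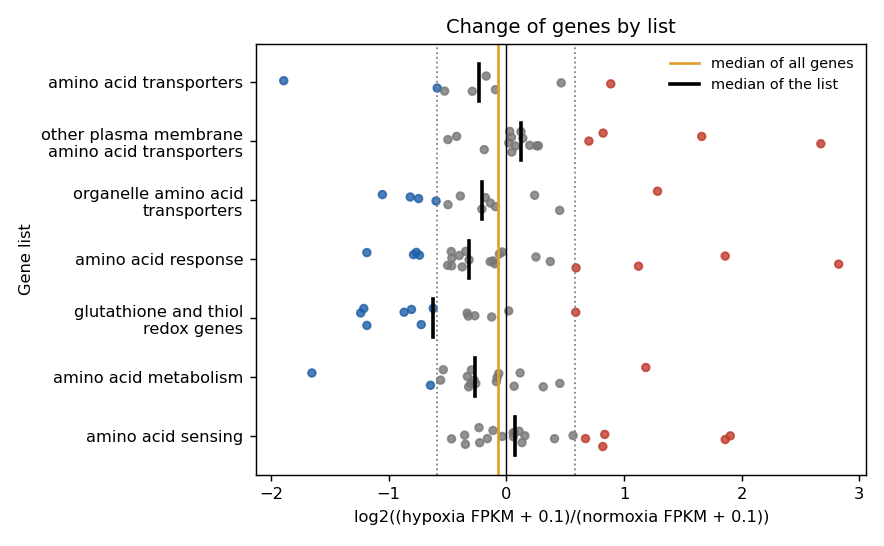
Change of each expressed gene as log2((hypoxia FPKM + 0.1)/(normoxia FPKM + 0.1)), for the amino acid transporters and 6 related lists, with points spread vertically for legibility. Black bars are list medians, the orange line is the median of all genes at -0.07, dotted lines mark 1.5-fold, and red and blue mark genes past it. The lowest list median is that of the glutathione and thiol redox genes at -0.62, a list that includes NQO1 and HMOX1. The median of the organelle transporters turns from -0.21 to 0.02 under equal FPKM sums.

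As a check of the treatment and of the cell line, marker lists were read in the same table. All 14 hypoxia response genes with values were past the 1.5-fold limit upward, with a median change of 3.17, and NDRG1, CA9 and SLC2A3 had the largest changes. Of 12 squamous epithelial markers, 9 had values, from 4.08 to 398 FPKM in normoxia and from 3.26 to 442 FPKM in hypoxia. KRT14, EGFR and PKP1 were not analysed here. Of 10 markers of leukocytes, fibroblasts, endothelium, smooth muscle and hepatocytes, CD68 had 2.36 and 2.86 FPKM, CDH5 4.78 and 2.83 FPKM and COL3A1 0.0489 and 0.107 FPKM, and the other 7 were not analysed here. Their part in the values of the transporters was not tested. The FPKM columns summed to 536005 in normoxia and 458431 in hypoxia, so that scaling to equal sums raised the median change of all genes by 0.22.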

How the data were processed

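SQ20B cells in normoxia (4 replicates) and at 0.5% O2 for 16 h (4 replicates) were compared, with groups taken from the source labels. The authors aligned stranded poly(A) reads to hg19 with STAR 2.3.0.1 and ran the Cufflinks 2.1.1 suite with RefSeq annotation. The deposited FPKM values are the authors' values, 1 per transcript and condition over the replicates. The remaining columns hold the authors' own comparison (fold change, statistic, p and q) and were not used. Because no values of single replicates were analysed here, limma, planned for that case, was not run. The methods describe deep sequencing with 1 sample per lane, but pooled FPKM values do not give the fragments behind each transcript, so no interval or test is given.

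RefSeq identifiers were paired with symbols through the annotation of GRCh38.p14 (24293 of 24812 entries, 97.9%), which gave no coordinates here except those of the promoter windows. Entries of a gene were summed, including identifiers listed more than once (15, none in the set). Locus starts in the table count from 0, as 5320 of 12882 loci had an annotated GRCh37 transcript start at the listed start plus 1 and 637 at the listed start, and 1 was added. The log2 ratio was computed with 0.1 added, for a mean FPKM of at least 0.5. The calculation was run on simulated data with planted changes larger than the limit and little noise. That run checks the computation and does not show how reliable the calls in these data are. Promoter windows were matched to GRCh37 by sequence. Besides the set, the 3 genes with the largest change in each direction were named in each of the lists of transporters and pathways, and in part of the marker lists, except 1 gene that is not reported here. Members and lists were chosen with earlier results of these data known. Python 3.11.15, numpy 2.4.6, pandas 2.3.3 and matplotlib 3.10.9 were used.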

Additional observations from a re-analysis of the deposited data

How the results depend on the processing

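Each result is 1 pooled value per condition, so the replicate error is unknown, and leaving out single replicates could not be done. No paired analysis was possible because the FPKM columns carry no replicate numbers. The number of genes past the fold limit was 3 and stayed within 1.5 times of it under every pseudocount, filter, scaling and transcript choice, but was 1 at a limit of 2-fold (0 higher, 1 lower) and 6 at 1.2-fold (2 higher, 4 lower). The 2 lower genes became 1 with 1 added to each value, with the median change of all genes set to 0 and under quantile normalization, as SLC7A5 dropped out. Scaling to equal FPKM sums gave 2 higher and 1 lower, and moved the median of the set from -0.23 to -0.0075. With coding transcripts alone, chosen after the data were seen, 3 genes were lower, SLC3A2 being added.

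Under equal FPKM sums the share of higher genes among all genes past the limit went from 46.9% to 78.9%. It was 58.6% with the median change of all genes set to 0 and 57.8% under quantile normalization. Signs turned for SLC7A6 (0.053) and SLC38A1 (0.13), and for the transcripts NM_003983 (0.16), NM_001278389 (0.18) and NR_037193 (0.029). Quantile normalization turned that of SLC38A1 (0.12). SLC7A1, SLC7A5, SLC7A11, SLC3A2, SLC1A4 and SLC1A5 kept their sign under all 9 alternatives. Values were taken as unmoved within 0.1 on the log2 scale.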

Other observations

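Other parts of amino acid handling were read in the same way, with no test. Among 18 genes of glutamine, branched-chain and related amino acid metabolism that were expressed, 13 were lower and 5 higher in hypoxia, and 10 and 8 under equal FPKM sums. Past 1.5-fold were 2 lower genes and 1 higher gene, and 1 lower and 2 higher under equal FPKM sums. With the values as deposited this was 16.7% of the list, against 21.2% of all genes. ODC1, the first enzyme of polyamine synthesis, had 157 FPKM in normoxia and 50.1 FPKM in hypoxia, which was 3.14-fold lower. GOT2, the mitochondrial aspartate aminotransferase, had 113 and 72.3 FPKM, and the glutaminase GLS2 3.67 and 2.46 FPKM. BCKDHA, a subunit of the branched-chain keto acid dehydrogenase, had 1.31 and 3.11 FPKM, and its kinase BCKDK 2.13 and 2.96 FPKM.

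Among 21 genes of amino acid sensing and mTORC1 signaling that were expressed, 13 were higher and 8 lower, and 16 and 5 under equal FPKM sums. The limit was passed by 5 upward and none downward, or 23.8% of the list. Of all genes, 21.2% passed it, 9.95% upward. The Rag GTPase RRAGD had 0.210 FPKM in normoxia and 1.06 FPKM in hypoxia, and RRAGA 21.2 and 37.9 FPKM. RRAGD and CASTOR1 (0.379 and 0.663 FPKM), both past the limit, lay below 0.5 FPKM in normoxia. They counted as expressed through their hypoxia values, so that the filter favors an upward change in them. DDIT4, which is on the list of the amino acid response as well, had a change of 1.86. The lowest changes were those of MLST8 (-0.46), LAMTOR1 (-0.35) and LAMTOR4 (-0.35).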
